A study of Mus musculus with 3 samples.

Results

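The set described here holds 37 nucleolar genes whose proteins make ribosomes, chosen by name as nucleolar, snoRNP and rRNA processing genes. The choice did not use their values, but was made with earlier results of these data known. All 37 had a row among the 20716 gene symbols of the CBTi-seq table and among the 55402 Ensembl IDs of the 3' tables. The cells were L929, a mouse connective tissue fibroblast line, grown as a control culture or with Rrm2 knocked down. Rrm2 is the small subunit of ribonucleotide reductase, which makes deoxyribonucleotides. Single cells were drawn into a capillary, and their RNA was copied with an oligo dT primer and template switching, amplified for 20 PCR cycles and read by CBTi-seq or by a 3' method. The protocol text is the same for both methods, and the sources used here give neither the agent of the knockdown nor whether columns came from separate cultures.

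CBTi-seq is 1 sample whose table has 10 columns named control and 10 named knock. The 3' data are 2 samples, 1 labelled control and 1 labelled knock, with 8 columns each. Each comparison is therefore 1 sample against 1 sample, or columns within 1 sample. The sources used here do not say whether a column is 1 cell, so the spread between columns cannot be read as a spread between cells. Columns are not replicate cultures, no difference was tested, and no p-value is given. Levels are CPM, each gene's counts scaled to a library total of 1000000, from counts summed over a group's columns, and ratios are knock over control on the log2 scale. The range in parentheses after a ratio is its exact 95% interval, which covers counting error only. Ratios are read at a mean level of 50 CPM or more, and a gene is called 2-fold apart at a log2 ratio of 1 or more in size.

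The nucleolus is where RNA polymerase I transcribes ribosomal DNA into one long precursor RNA. Small nucleolar ribonucleoproteins (snoRNPs) guide its chemical modification, box C/D snoRNPs for methylation of the ribose and box H/ACA snoRNPs for conversion of uridine to pseudouridine. Processing factors then cut and fold the precursor into the small and the large subunit, and growing cells such as fibroblasts in culture keep this pathway active. The transcription factor Myc is a known activator of many of its genes, and binds the E-box CACGTG.

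RefSeq promoter windows (GRCm38.p6, 250 bases before to 50 after the start) were matched for 32 members, and not for Rrs1, Fbl, Rrp12, Npm1 and Bop1. CACGTG, which reads the same on both strands, was in 7 of these 32 windows (21.9%) and in 8.09% of the windows of 27025 genes. The related E-box CACGCG, searched on both strands, was in 12 (37.5%, against 10.5%). The ETS factor motif CCGGAAG, on both strands, was in 10 (31.3%, against 9.93%). GGCGGG, the core of the GC box, was in 17 (53.1%, against 37.9%), and TATAA in 3 (9.38%, against 28.0%). Matches were counted for each motif separately, also where motifs lie side by side, and a match is letters in a window and not a bound site. The 30 bases around the E-box are shown for the 7 members that hold it, since it is the motif of the factor best known for this pathway, with the E-box in capitals and each sequence on the strand of its gene.
Nop2 (chr6:125131811-125131840, plus strand): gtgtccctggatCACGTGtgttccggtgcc
Ltv1 (chr10:13193092-13193121, minus strand): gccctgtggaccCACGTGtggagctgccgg
Pes1 (chr11:3963965-3963994, plus strand): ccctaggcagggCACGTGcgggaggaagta
Mybbp1a (chr11:72441347-72441376, plus strand): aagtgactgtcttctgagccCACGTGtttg
Tsr1 (chr11:74898092-74898121, plus strand): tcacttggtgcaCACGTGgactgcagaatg
Utp18 (chr11:93885769-93885798, minus strand): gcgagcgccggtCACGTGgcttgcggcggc
Wdr43 (chr17:71616220-71616249, plus strand): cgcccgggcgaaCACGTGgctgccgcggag

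The E-box began 60 bases before the RefSeq start in Nop2 and 20 before it in Utp18, and after the start in the other 5. The promoters of the members with the log2 ratio farthest from 0 in each assay are shown for comparison, 250 bases up to the start. In Nolc1, capitals mark CGCGTG, which is CACGCG read on the other strand, and CCGGAAG, which begin 25 and 14 bases before the start. The Rrp1 stretch held neither E-box nor the ETS motif, and the CACGCG match of Rrp1 lies in the bases after its start.
Nolc1 (chr19:46075597-46075846, plus strand): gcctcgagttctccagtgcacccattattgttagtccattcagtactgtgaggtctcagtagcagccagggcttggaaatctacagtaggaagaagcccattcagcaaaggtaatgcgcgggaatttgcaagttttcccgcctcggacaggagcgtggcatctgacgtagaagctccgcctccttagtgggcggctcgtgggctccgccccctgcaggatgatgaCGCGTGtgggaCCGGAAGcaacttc
Rrp1 (chr10:78413044-78413293, minus strand): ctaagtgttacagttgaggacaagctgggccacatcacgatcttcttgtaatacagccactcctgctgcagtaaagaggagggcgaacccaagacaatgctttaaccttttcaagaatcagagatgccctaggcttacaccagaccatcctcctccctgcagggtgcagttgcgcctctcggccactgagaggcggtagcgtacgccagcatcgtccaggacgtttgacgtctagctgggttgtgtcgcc

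The columns and labels were checked first. CBTi-seq columns held 41570 to 846819 counts, with control column 1 the shallowest, and 3' columns 399393 to 2496457. Rrm2 stood at 480.9 CPM in the CBTi-seq control columns and 350.1 in the knock columns, a log2 ratio of -0.46 (-0.56 to -0.35), but in the 3' data at 39.1 CPM under the control label and 148.1 CPM under the knock label, a ratio of 1.92 (1.74 to 2.12). Groups of the 3' data are called by label here for that reason, and each 3' direction rests on labels that Rrm2 goes against. Of 12 fibroblast markers 9 had a row in CBTi-seq, with a summed level of 1627 to 2885 CPM in the control and 1595 to 2705 CPM in the knock columns. Most of that sum was Vim and S100a4, while Col1a2 had a log2 ratio of -1.26 (-1.54 to -0.98), Pdgfrb of -0.83 (-1.08 to -0.59) and Fn1 of -0.62 (-0.90 to -0.35). The 2 epithelial markers with a row there summed to at most 6.18 CPM in a column. In the 3' columns the fibroblast markers summed to 721.1 to 883.7 CPM under the control label and 1629 to 1821 CPM under the knock label, and Thy1 and Lum were near 0. Of the 11 markers with a count under each label 7 were higher under the knock label and 4 lower, where 55.6% of all genes were higher. Dcn was lower, at 10.0 to 26.5 CPM in the columns labelled control and 2.26 to 8.37 CPM in those labelled knock.

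In CBTi-seq, RNA of the nucleolar set was somewhat more abundant in the knock columns, by many small differences and none of 2-fold. The summed level of the 37 members was lowest at 5036, 6803 at the median and 8576 CPM at the highest in the control columns. In the knock columns it was 7306, 8363 and 9835 CPM. The groups overlapped, but all 10 knock columns lay above the control median and 5 lay above the highest control column. Over summed counts the level was 7194 CPM in control and 8459 CPM in knock, 1.18-fold higher, a log2 ratio of 0.23 (0.21 to 0.26). The mean over columns was 6940 ± 1240 CPM (SD, n = 10 columns) in control and 8493 ± 846 CPM (SD, n = 10 columns) in knock, so that the groups' means lay further apart than either SD.

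**Figure D1:**
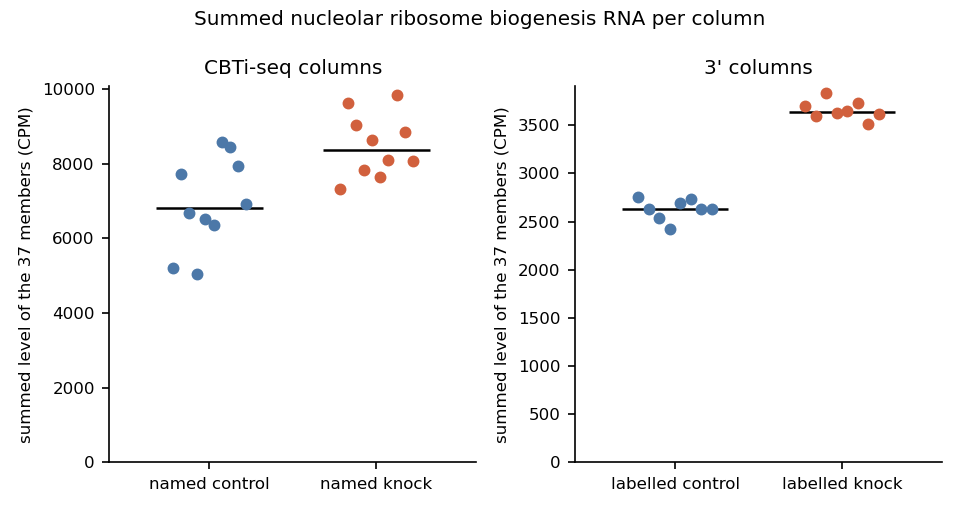
Summed level of the 37 members in CPM (vertical axis) in each column of CBTi-seq (left, 10 control and 10 knock) and of the 3' libraries (right, 8 columns a label), with points for columns and bars for medians. The CBTi-seq groups overlap between 7306 and 8576 CPM, and the 3' columns do not overlap.

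At 50 CPM or more stood 35 members in CBTi-seq, all but Polr1b and Rrp12. Of these 28 were higher in the knock columns and 7 lower, with a median log2 ratio of 0.24 and a range of -0.28 (Rrs1) to 0.56 (Nolc1). Of all 5243 genes at that level 49.1% were higher, and their median was -0.01. None of the 35 was 2-fold apart, where 1.01% of all genes were (0.343% higher and 0.668% lower), and none had columns that did not overlap, where 0.0763% of all genes were higher and 0.114% lower in that way. For 6 members, Fbl, Nop58, Dkc1, Nhp2, Nolc1 and Ebna1bp2, all 10 knock columns lay above the control median, which was so for 5.7% of all genes. At any level 29 of 37 members were higher, against 46.4% of all genes with a count in each group. With each of 20 columns left out in turn, between 27 and 33 members were higher.

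Nolc1 had the highest ratio of the set in CBTi-seq. Its protein, also called Nopp140, is a chaperone of snoRNPs in the nucleolus and Cajal bodies, and its protein-coding gene (ENSMUSG00000015176) spans 46075863 to 46085530 of chromosome 19, plus strand, in GRCm38. Its level was 24.1 CPM at the lowest, 204.4 at the median and 273.2 at the highest in the control columns, and 206.9, 312.9 and 377.3 CPM in the knock columns. The lowest control value is that of the shallow column 1, and the next lowest was 130.3 CPM. Of the knock columns 9 lay above the highest control column, and only the lowest of them overlapped the control range. The ratio was 0.56 (0.43 to 0.70), and between 0.49 and 0.66 with single columns left out.

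The other multifunctional nucleolar proteins were also higher in the knock columns, so that all 6 of this role were, with a summed ratio of 0.27 (0.23 to 0.31). Ncl encodes nucleolin, an RNA binding protein of the nucleolus that acts in the first steps of precursor processing. Its level ran from 579.8 over 748.5 to 1076 CPM (lowest, median, highest) in the control and from 631.9 over 1009 to 1228 CPM in the knock columns. The ranges overlapped widely, yet 9 of 10 knock columns lay above the control median, and the ratio was 0.31 (0.23 to 0.38). Npm1 encodes nucleophosmin, a histone and ribosome chaperone that gives the outer nucleolus its structure. Its columns ran from 609.3 over 909.7 to 1028 CPM in control and from 690.3 over 970.9 to 1450 CPM in knock, a ratio of 0.26 (0.19 to 0.33). No gene had more than 638 counts in a CBTi-seq column, though totals reached 846819, and Npm1 reached 516 and Ncl 491. Levels of such genes can therefore fall with depth. Both were lowest in the deepest column of each group, control column 9 and knock column 10. Among knock columns both were highest in the shallowest, column 9. The part of depth in their ranges was not tested. Mybbp1a, a Myb binding protein of the nucleolus, had a ratio of 0.24 (0.11 to 0.36), while the intervals of Gnl3 (nucleostemin) at 0.09 (-0.05 to 0.22) and of the RNA helicase Ddx21 at 0.06 (-0.10 to 0.21) included 0. Ddx21 went below 0 without knock column 8 and after thinning.

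All 7 snoRNP proteins were higher in the knock columns. The box C/D proteins are Fbl (fibrillarin), the methyltransferase, and Nop56 and Nop58, which form the scaffold around the guide RNA. Fbl ran from 120.3 over 284.2 to 393.8 CPM in the control columns and from 300.6 over 346.9 to 424.9 CPM in the knock columns, a ratio of 0.27 (0.15 to 0.39). The knock columns of Fbl all lay above the control median, 3 of them above the highest control column. Nop58 ran from 246.2 over 375.7 to 488.6 CPM in control and from 376.0 over 432.9 to 571.0 CPM in knock, a ratio of 0.30 (0.19 to 0.40). For Nop56 the ratio was 0.25 (0.12 to 0.38), with 8 of 10 knock columns above the control median.

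Among the box H/ACA proteins, Dkc1 (dyskerin), the pseudouridine synthase, had the highest ratio. It ran from 72.2 over 186.4 to 274.0 CPM in the control columns and from 201.8 over 257.8 to 345.3 CPM in the knock columns, a ratio of 0.40 (0.26 to 0.54). Nhp2, another core protein of these particles, ran from 96.2 over 309.5 to 433.9 CPM in control and from 360.1 over 397.1 to 488.4 CPM in knock, a ratio of 0.36 (0.25 to 0.47). In both genes the lowest control value came from column 1, and 4 knock columns of Dkc1 and 3 of Nhp2 lay above the highest control column. The small scaffold protein Nop10 had a ratio of 0.13 (0.01 to 0.25), and Gar1, which helps to release the substrate, one of 0.11 (-0.06 to 0.28). Both went below 0 when columns were thinned to 50000 counts, a depth that control column 1, with 41570 counts, did not reach.

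The 3 members that transcribe ribosomal DNA had small ratios of both signs. Polr1a, the largest subunit of RNA polymerase I, ran from 32.7 over 61.5 to 108.2 CPM in the control and from 30.3 over 53.4 to 105.5 CPM in the knock columns. Its ratio was -0.27 (-0.54 to -0.004), with an interval below 0. After thinning this ratio was 0.81, from few counts a column. Polr1b, the second subunit, was at 49.98 and 47.1 CPM, just under the level limit, with a ratio of -0.09 (-0.40 to 0.22). Ubtf, the factor that keeps ribosomal DNA open and recruits the polymerase, had a ratio of 0.12 (-0.05 to 0.29). Summed, the 3 genes had a ratio of -0.01 (-0.14 to 0.12), while 6 of 8 other genes of the same machinery at 50 CPM or more were higher in the knock columns, by a median of 0.14 over the 8. The difference between roles was not tested.

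Of 12 small subunit factors 11 reached the level limit, and 7 of these were higher in the knock columns. Rrp9, a protein of the U3 snoRNP, had the highest ratio of them. It ran from 0 over 86.8 to 164.1 CPM in the control and from 55.5 over 139.3 to 188.2 CPM in the knock columns, a ratio of 0.46 (0.26 to 0.66). The 0 was control column 1, where 9 members had no count. The U3 processome proteins Heatr1 and Nop14 had ratios of 0.42 (0.18 to 0.66) and 0.38 (0.18 to 0.57). Bysl (bystin), which acts late on the small subunit, had 0.38 (0.19 to 0.58), and Utp18 0.28 (0.10 to 0.47). After thinning Utp18 was no longer above 0.

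Intervals that included 0 were found for the other small subunit factors. They were the processome proteins Utp14a (0.18) and Wdr43 (0.08), the export factor Rrp12 (0.24, under the level limit), the RNA acetyltransferase Nat10 (-0.14), the endonuclease Nob1 (-0.06), and the late factors Tsr1 (-0.11) and Ltv1 (-0.03). Nat10, Nob1 and Ltv1 were above 0 when every column had the same weight, and also after thinning. In the other direction, thinning took Utp14a to -0.15 and Rrp12 to -0.53. Leaving out control column 9, the deepest, turned Nob1, Tsr1 and Ltv1, and leaving out control column 3 turned Nat10. The groups overlapped for every small subunit factor.

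Of the 9 large subunit factors 7 were higher in the knock columns. Nop16, a factor of early large subunit particles, ran from 83.3 over 163.1 to 222.4 CPM in the control and from 151.3 over 220.7 to 283.3 CPM in the knock columns, a ratio of 0.47 (0.32 to 0.63). Ebna1bp2, the mammalian counterpart of yeast Ebp2, ran from 105.0 over 206.5 to 312.7 CPM in control and from 222.4 over 266.7 to 332.8 CPM in knock, a ratio of 0.43 (0.30 to 0.57). All 10 knock columns of Ebna1bp2 lay above the control median, but 1 lay above the control maximum. The proteins of the PeBoW complex, Pes1, Bop1 and Wdr12, which is needed to process the large subunit RNA, had ratios of 0.19 (0.02 to 0.36), 0.43 (0.26 to 0.60) and 0.31 (0.12 to 0.49).

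Rrs1, which brings the 5S particle into the large subunit, had the lowest ratio of the set. It ran from 72.2 over 127.6 to 271.5 CPM in the control and from 60.5 over 141.4 to 213.9 CPM in the knock columns. Its summed counts gave a ratio of -0.28 (-0.45 to -0.11), while the median of its knock columns was above that of its control columns. Rrp1 had a ratio of 0.13 (0.01 to 0.26), the RNA methyltransferase Nop2 0.05 (-0.12 to 0.22) and Nip7 -0.04 (-0.24 to 0.16). Nop2 went below 0 without knock column 5, and Nip7 above 0 without control column 9.

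**Figure D2:**
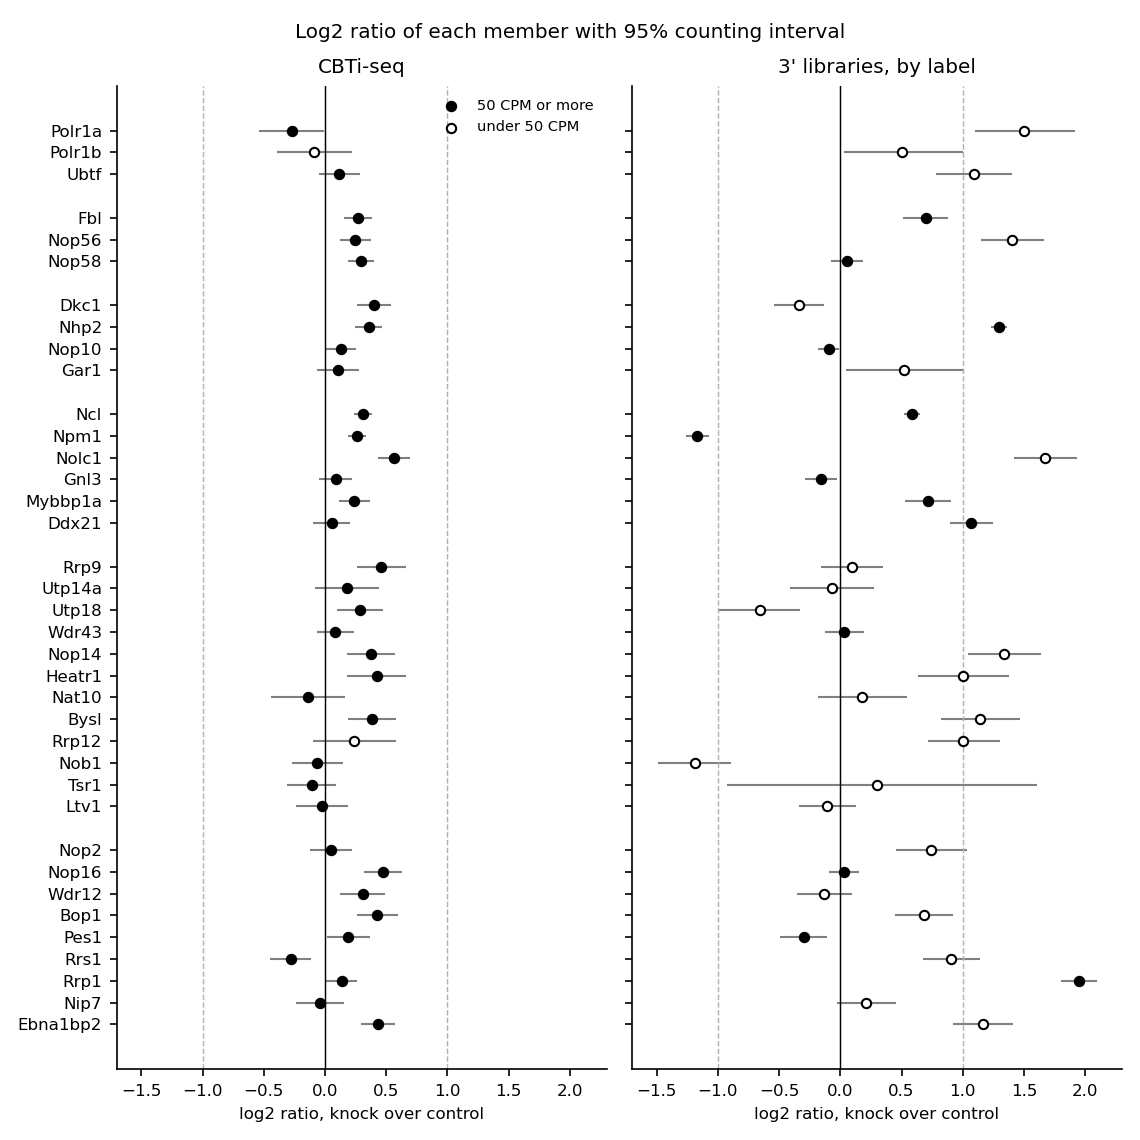
Log2 ratio of knock over control (horizontal axis) for each of the 37 members (vertical axis, in blocks by role) in CBTi-seq (left) and the 3' libraries by label (right), with 95% counting intervals as lines, filled points at 50 CPM or more, open points below, and dashed lines at 2-fold. CBTi-seq ratios lie between -0.28 and 0.56, and those of the 3' libraries between -1.19 and 1.95.

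In the 3' libraries the summed RNA of the set was higher under the knock label, and the members moved in both directions. Columns summed to 2428 at the lowest, 2633 at the median and 2751 CPM at the highest in the library labelled control, and to 3517, 3641 and 3838 CPM in the library labelled knock. The columns did not overlap. Summed counts gave 2643 and 3665 CPM, a log2 ratio of 0.47 (0.45 to 0.50). It was 0.33 with TMM factors and 0.31 with median-of-ratios factors. The largest gains in the sum were those of Nhp2 (339.9 and 833.6 CPM), Ncl (387.1 and 580.9) and Rrp1 (62.4 and 240.5). Npm1 had the largest loss (342.7 and 152.6). The difference of the sum thus rests largely on a few members. At 50 CPM or more stood 13 members, of which 9 were higher and 4 lower under the knock label, where 57.7% of all 2826 genes at that level were higher. The median ratio of the 13 was 0.06, and that of all genes 0.14. With TMM factors, median-of-ratios factors or totals without mitochondrial and ribosomal protein genes, 6 of the 13 were higher and the median was below 0 (-0.08, -0.10 and -0.08), and the median of all genes moved down by as much.

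Of these 13 members 4 were at least 2-fold apart, where 17.9% of all genes were. Higher under the knock label were Nhp2, Ddx21 and Rrp1 (13.3% of all genes), and lower was Npm1 (4.53%). Columns did not overlap for 4 members that were higher, these 3 and Ncl (24.6% of all genes), and for Npm1, which was lower (11.7%). At any level, with at least 1 count under each label, 27 of 37 were higher (55.6% of all genes), with a median of 0.52 against 0.16 over all genes. In this wider set 12 members were at least 2-fold higher (23% of all genes) and 2 lower (13.3%), and the columns of 10 did not overlap and were higher (11.1% of all genes), and of 1 lower (3.77%).

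Rrp1 had the ratio farthest from 0 in the 3' libraries, whichever way the labels are read. It encodes a nucleolar protein needed for large subunit processing, and its protein-coding gene (ENSMUSG00000061032) spans 78400384 to 78413043 of chromosome 10, minus strand, in GRCm38. It ran from 49.9 over 58.6 to 80.9 CPM in the columns labelled control and from 189.6 over 238.3 to 313.6 CPM in those labelled knock. The ratio was 1.95 (1.80 to 2.10), a fold of 3.85. In CBTi-seq the ratio of Rrp1 was 0.13, with groups that overlapped almost fully.

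Nhp2 ran from 311.1 over 347.2 to 369.2 CPM in the columns labelled control and from 765.4 over 812.7 to 930.0 CPM in those labelled knock, a ratio of 1.29 (1.23 to 1.36). The gap between the groups exceeded the range within either. Ncl ran from 342.0 over 378.2 to 447.1 CPM and from 548.6 over 558.5 to 659.9 CPM, a ratio of 0.59 (0.52 to 0.65). Ddx21 ran from 25.0 over 48.7 to 68.2 CPM and from 85.9 over 110.2 to 117.6 CPM, a ratio of 1.07 (0.89 to 1.25), which was 0.93 with TMM factors and so under 2-fold.

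Npm1 went the other way. It ran from 257.0 over 339.7 to 385.6 CPM in the columns labelled control and from 127.6 over 152.7 to 178.6 CPM in those labelled knock, a ratio of -1.17 (-1.26 to -1.07). All 8 columns labelled knock lay below the lowest column labelled control, while in CBTi-seq Npm1 was higher in 8 of 10 knock columns than the control median. The gene (ENSMUSG00000057113) spans 33152287 to 33163206 of chromosome 11, minus strand, in GRCm38. It has processed copies in the mouse genome, and the sources used here do not say how reads shared with them were counted, so its levels are uncertain.

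**Figure D3:**
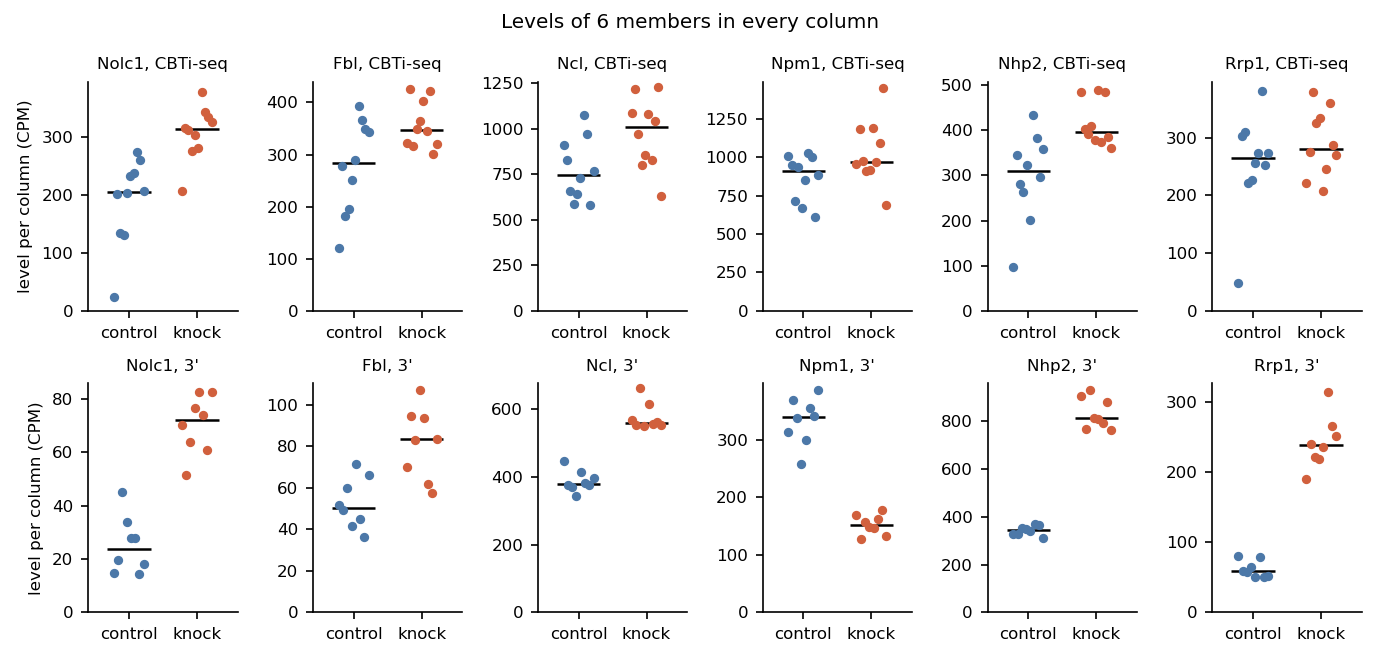
Level in CPM (vertical axis, from 0, scaled for each panel) of Nolc1, Fbl, Ncl, Npm1, Nhp2 and Rrp1 in each column of CBTi-seq (top) and the 3' libraries by label (bottom), with bars at the medians. The 3' columns of Nolc1, Ncl, Nhp2 and Rrp1 are higher under the knock label and those of Npm1 lower, without overlap, and the CBTi-seq groups overlap in all 6.

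The other members at 50 CPM or more in the 3' libraries had smaller ratios. Fbl had 0.70 (0.51 to 0.88) and Mybbp1a 0.71 (0.53 to 0.90), each with columns that overlapped, and Mybbp1a had -0.13 when columns were thinned to 50000 counts. Nop58 (0.06), Wdr43 (0.03) and Nop16 (0.03) had intervals that included 0, and were below 0 under TMM factors. Lower under the knock label were Nop10 at -0.10 (-0.18 to -0.01), Gnl3 at -0.16 (-0.28 to -0.03) and Pes1 at -0.30 (-0.49 to -0.11). After the same thinning Gnl3 was at 0.21.

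Below the level limit, where 1 column can hold a handful of counts, the 3' ratios were wider. Columns did not overlap and were higher under the knock label for Ubtf (1.09), Nop56 (1.40), Nolc1 (1.67), Nop14 (1.34), Bysl (1.14) and Ebna1bp2 (1.16). Nolc1 ran from 14.6 over 23.8 to 45.1 CPM in the columns labelled control and from 51.5 over 72.0 to 82.6 CPM in those labelled knock. With overlap, Polr1a had 1.50 (1.10 to 1.92), Rrp12 1.0 (0.71 to 1.30), Heatr1 1.0 (0.63 to 1.38), Rrs1 0.91 (0.68 to 1.14), Nop2 0.74 (0.46 to 1.03) and Bop1 0.68 (0.45 to 0.92). Heatr1, Rrp12 and Ubtf were under 2-fold with TMM factors.

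Smaller positive ratios in this low range were those of Polr1b (0.51), Gar1 (0.52), Nip7 (0.21), Nat10 (0.18), Rrp9 (0.09) and Tsr1 (0.30). Tsr1 had 10 and 16 counts in all, with 5 columns labelled control and 3 labelled knock at 0. Negative ratios were those of Nob1 at -1.19 (-1.48 to -0.89), Utp18 at -0.66 (-0.99 to -0.33), Dkc1 at -0.34 (-0.54 to -0.13), Wdr12 at -0.13, Ltv1 at -0.11 and Utp14a at -0.07, the last 3 with intervals that included 0. Nob1, which makes the last cut of the small subunit RNA, ran from 17.0 over 39.9 to 45.2 CPM under the control label and from 10.5 over 15.7 to 25.5 CPM under the knock label.

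Other measures differed between the 3' libraries as well. Cell cycle markers summed to 455.0 to 587.8 CPM in the columns labelled control and 1404 to 1577 CPM in those labelled knock, with all 14 markers higher. Ribosomal protein genes held 25.0% to 26.2% of counts under the control label and 16.9% to 17.4% under the knock label. Mitochondrially encoded genes held 0.946% to 0.994% and 1.67% to 1.74% of counts, with no overlap. The epithelial markers summed to 139.0 to 251.6 CPM and 90.7 to 174.1 CPM, nearly all from Cdh1, with Krt18, Krt5, Krt14 and Cldn4 at 0. Epcam was at 6.79 CPM under the control label and 1.64 CPM under the knock label. Krt8 went the other way, at 0 in the columns labelled control and 3.79 to 9.82 CPM in those labelled knock. The immune markers summed to 65.5 to 120.2 CPM and 136.4 to 189.6 CPM, mostly from Cd68, with Ptprc and Cd3e at 0. The part of these measures in the differences of the nucleolar genes was not tested. In CBTi-seq the cell cycle markers summed to 1043 to 3457 CPM in the control and 2146 to 3639 CPM in the knock columns, with 12 of 14 higher by a median of 0.15, and the ribosomal protein share had medians of 7.59% and 7.46%. In sums over columns, fewer cells of a type and less RNA per cell cannot be told apart.

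Set side by side by label, 21 members had ratios above 0 in both assays and 2 below 0 in both, Nob1 and Ltv1. Another 8 were higher in CBTi-seq and lower under the 3' knock label, and 6 the reverse. The sign was thus shared by 23 of 37 members, and by 48.98% of 11335 genes with counts in every group. Of the 13 members at 50 CPM or more in both assays 9 had the same sign, against 52.7% of 2195 genes at that level, and Nop10, Npm1, Gnl3 and Pes1 had opposite ones. With the 3' labels exchanged, 14 of 37 and 4 of 13 would share the sign. The difference between the assays was not tested.

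Levels also differed between the assays, over all columns of each. CPM is a share of an assay's own counts, and the assays differed in their most abundant genes. The highest count of any gene in a column was 399 to 638 in CBTi-seq and 10578 to 67257 in the 3' libraries. Ribosomal protein genes held a median of 7.59% and 7.46% of counts in CBTi-seq (control and knock), and 25.6% and 17.2% in the 3' libraries. The levels are thus not on a like scale, and the part of this in the differences was not tested. Of the 37 members 36 had a higher CPM in CBTi-seq than in the 3' libraries. Among genes whose mean level over both assays was 50 CPM or more, a choice made after seeing the data so that neither assay alone passes a gene, 30 of 31 members were higher in CBTi-seq, with a median log2 ratio of CBTi-seq over 3' of 1.84. Of all 3970 genes so chosen 73.6% were higher in CBTi-seq, with a median of 0.91. The exception was Nhp2, at 358.8 CPM in CBTi-seq and 618.6 CPM in the 3' libraries. At the other end, Tsr1 stood at 110.5 and 1.60 CPM, a fold of 69.0, and Gar1 at 153.1 and 10.0 CPM, a fold of 15.2.

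The other genes of ribosome biogenesis gave a broader view of the pathway, with 142 genes in 5 lists. In CBTi-seq 80 of 120 at 50 CPM or more were higher in the knock columns and 40 lower, by a median of 0.13, where 49.1% of all genes were higher. None was 2-fold apart, where 1.01% of all genes were. By list, 6 of 8 genes of the RNA polymerase I machinery were higher, 8 of 13 of snoRNP assembly and RNase MRP, 29 of 42 small subunit factors, 29 of 44 large subunit factors and 8 of 13 of the exosome. Rrp8, a methyltransferase of the large subunit RNA, was counted in the small subunit list. The largest ratios were those of the small subunit factor Noc4l, 0.68 (0.47 to 0.89), and the RNase P and MRP subunit Rpp40, 0.65 (0.34 to 0.96). Naf1, an assembly factor of box H/ACA snoRNPs, was lower at -0.77 (-1.04 to -0.49), while the H/ACA proteins themselves were higher.

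**Figure D4:**
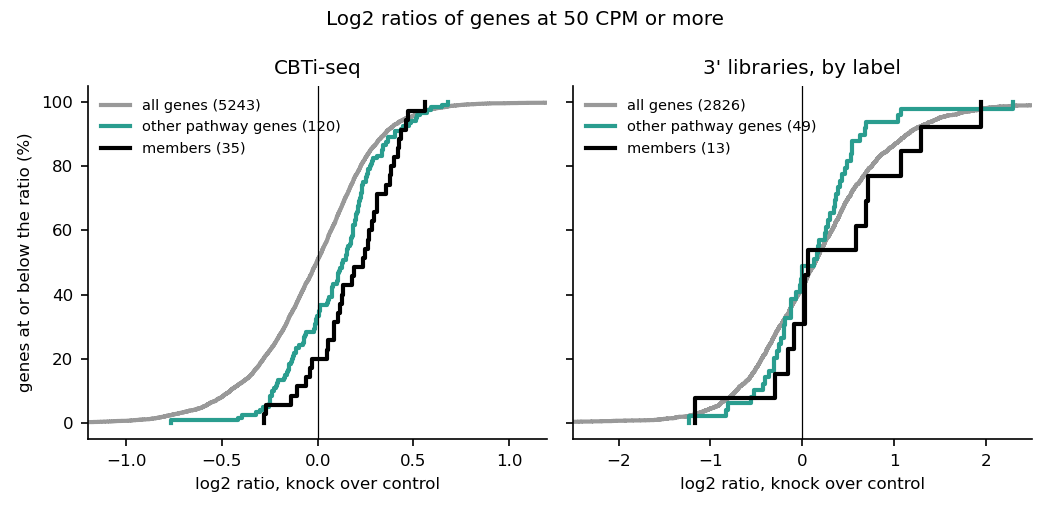
Share of genes (vertical axis, percent) at or below a log2 ratio of knock over control (horizontal axis), over genes that reached 50 CPM in CBTi-seq (left) and the 3' libraries by label (right), with curves for all genes, 142 other pathway genes as far as they reached that level, and the members. In CBTi-seq the members' curve lies to the right of that of all genes (medians 0.24 and -0.01), and in the 3' libraries the medians are 0.06 and 0.14.

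In the 3' libraries 26 of 49 other pathway genes at 50 CPM or more were higher under the knock label, where 57.7% of all genes were. Their median was 0.13, against 0.14 for all genes. Of the 49, 3 were at least 2-fold higher (13.3% of all genes) and 1 lower (4.53%). At least 2-fold higher were Lyar (2.29, 2.02 to 2.57), a nucleolar zinc finger protein, Rrp8 (1.08, 0.86 to 1.30), a methyltransferase of the large subunit RNA, and Rbm28 (1.04, 0.83 to 1.25). Imp3, a protein of the U3 snoRNP, was lower at -1.24 (-1.34 to -1.13). Lyar ran from 7.51 over 19.6 to 26.5 CPM in the columns labelled control and from 69.1 over 89.8 to 102.5 CPM in those labelled knock, with no overlap.

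Myc differed in opposite directions in the assays. In CBTi-seq it ran from 120.3 over 292.6 to 459.4 CPM in the control and from 265.6 over 365.4 to 593.7 CPM in the knock columns, a ratio of 0.43 (0.31 to 0.54). In the 3' libraries it was at 50.9 CPM under the control label and 22.3 CPM under the knock label, a ratio of -1.19 (-1.45 to -0.94). Its mean level there was under the limit of 50 CPM. The 7 members with CACGTG in the promoter window had a median CBTi-seq ratio of 0.08, and the 25 with a window that lacks it 0.25. In the 3' libraries, at any level, these medians were 0.03 and 0.52.

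Across the 20 CBTi-seq columns, with group means subtracted, the members varied together. The correlation (Pearson's r) of a member with the sum of the other members had a median of 0.60 and was above 0 for 35 of 37, and for all genes that reached the level limit the median r with the members' sum was 0.26. Without control column 1 these medians were 0.58 and 0.07. The columns share a library and their depth differs, so these are descriptions. Mybbp1a (0.85) and Ddx21 (0.81) had the highest r, while Npm1 (-0.07), Gnl3 (-0.02), Heatr1 (0.16) and Ebna1bp2 (0.16) had the lowest. Without control column 1 the r of Gnl3 was 0.43 and that of Ebna1bp2 0.54, while that of Npm1 was 0.05.

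The genes whose column pattern was nearest to the members' sum were Abcf1 (r of 0.90), Eif4a3 (0.89), Prmt1 (0.89), Ruvbl2 (0.83) and Cct3 (0.83). Without control column 1 the first 3 were again the nearest (0.88, 0.85 and 0.85), followed by Lyar and Snrpb2 (both 0.85). The members' sum had r of 0.65 with the summed cell cycle markers and 0.41 with the log2 column total, and 0.62 and 0.11 without control column 1. Its r with Myc was 0.16 and with Rrm2 0.06, and -0.14 and 0.13 without that column.

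**Figure D5:**
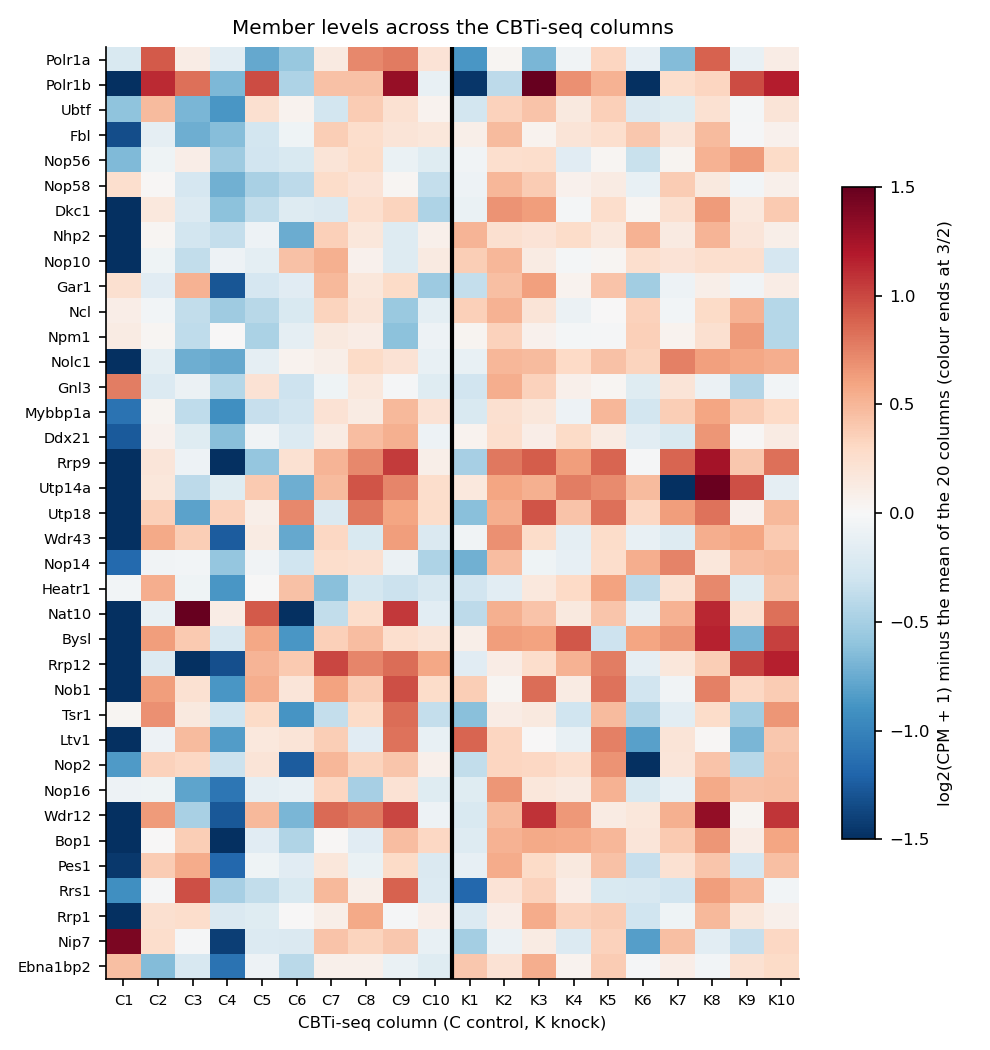
Level of each member (vertical axis) in each of the 20 CBTi-seq columns (horizontal axis, C for control and K for knock) as log2(CPM + 1) minus the mean of the 20 columns, from blue (lower) to red (higher), with colour ending at 1.5. Control columns 1 and 4 are lower for most members, and their summed levels of 5196 and 5036 CPM are the lowest of the 20.

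The spread between columns, beyond what counting error gives, was a coefficient of variation with a median of 29.5% over the 35 members at 50 CPM or more in the CBTi-seq control columns, or 25.4% without control column 1, and 18.5% in the knock columns. In the 3' columns, over 13 members, it was 12.6% and 10.5%. Several members host snoRNAs in their introns. By the GENCODE annotation (GRCm38) a snoRNA lies inside 7 of them, Nop56, Nop58, Dkc1, Ncl, Gnl3, Wdr43 and Tsr1. Their median CBTi-seq ratio was 0.25, and that of the 28 others at 50 CPM or more 0.21. In the 3' libraries, at any level, these medians were 0.06 for the 7 hosts and 0.69 for the 30 others. A gene on the opposite strand overlaps 16 members, among them Nhp2 (Rmnd5b) and Nop56 (Idh3b), and the sources used here do not say whether the counting used strand.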

How the data were processed

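The authors' deposited tables hold raw counts for each gene, 1 table for CBTi-seq and 1 for each 3' library. The submitters' processing notes name FastQC, Picard, STAR 2.7.11b, GRCm38 and GRCh38. The counter, its use of strand and of multimapped reads, and any filter: not given in the sources used here, and neither is whether the 3' values count reads or UMIs. Ensembl IDs were matched to symbols with GENCODE (GRCm38): 55141 of 55402 IDs matched, and the rest held 0.0194% and 0.0329% of counts in the libraries labelled control and knock. Columns were assigned by name, and carry no cell barcodes.

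For each group, counts of its columns were added up and scaled to CPM. Ratios have exact conditional 95% intervals and levels carry counting error only, since 20 cycles of PCR precede counting. A floor of 3 counts comes, for control and knock, to 0.777 and 0.855 CPM (CBTi-seq) and to 0.424 and 0.327 CPM (3'). The calculation was tested on simulated data that held counting error only, so that test does not cover the spread between columns. Alternatives were equal weights per column, scaling by edgeR's TMM (4.0.16), by DESeq2's median of ratios (1.42.0) or by totals that leave out mitochondrial and ribosomal protein genes, thinning to 50000 counts, other level limits, a correction for UMI collisions in a pool of 1024 (CBTi-seq) and each column left out. Control column 1 of CBTi-seq held 41570 counts, fewer than the 50000 of thinning. Correlations used log2(CPM + 1). Python 3.11.15 and R 4.3.3 were used. The members and lists were chosen with earlier results of these data known. Named were all members, Rrm2, at most 4 genes of each other list with the largest ratios, the 5 genes nearest in column pattern, and snoRNA hosts.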

Additional observations from a re-analysis of the deposited data

How the results depend on the processing

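The 4 members called 2-fold apart in the 3' libraries kept their sign in every alternative, but the median of the 13 members there went below 0 with TMM factors (-0.08), median-of-ratios factors (-0.10) and with mitochondrial and ribosomal protein genes left out of totals (-0.08), where 6 in place of 9 were higher. In CBTi-seq the other scalings, weights, thinning and the correction for UMI collisions gave 27 to 31 of 35 members higher. A limit of 20 CPM or none gave 29 of 37, and a limit of 100 CPM gave 26 of 31. Medians over these settings were 0.22 to 0.28. The CBTi-seq summed log2 ratio was 0.29 with equal weights per column and 0.26 with TMM factors, and 0.20 to 0.28 with single columns left out, where the median was 0.19 to 0.27, 27 to 33 members were higher and 0 were 2-fold apart. The 3' summed ratio was 0.33 with TMM factors, 0.31 with median-of-ratios factors and 0.33 with totals without mitochondrial and ribosomal protein genes, and 0.46 to 0.48 with single columns left out, where the median was 0.04 to 0.10, 8 to 9 members were higher and 4 were 2-fold apart. After thinning the 3' median was 0.35. At a limit of 20 CPM 21 of 30 members were higher in the 3' libraries, 12 were 2-fold apart and the median was 0.63, at 100 CPM 5 of 8 were higher, and without a limit 27 of 37 were higher, 14 were 2-fold apart and the median was 0.52. Without a limit, 12 members were at least 2-fold higher (23% of all genes with a count under each label) and 2 lower (13.3%). For the limits of 20 and 100 CPM no share of all genes is given, so the counts there have no background. The choice of limit changes which members count. The cause of the other differences was not tested. The sign of the ratio was the same in every alternative for 23 of 37 members in CBTi-seq and 25 of 37 in the 3' libraries. Thinned values of low members rest on few counts. Shallow depth limits CBTi-seq control column 1 most, and the correlations without it were chosen after seeing the data. No paired analysis was possible because column numbers name columns within a sample and the labels do not link them across groups.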
